A study of Mus musculus with 6 samples.

Results

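Every cell makes its proteins on ribosomes, each built from a large and a small subunit of ribosomal RNA and ribosomal proteins. Ribosomal protein mRNAs are abundant, short and made in matched amounts, and many start with a run of pyrimidines, the terminal oligopyrimidine motif, through which mTOR signalling controls their translation. In the liver they serve the hepatocyte's heavy load of secreted plasma proteins.

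The genes described here are those of the deposited expression table whose symbols mark cytosolic ribosomal proteins, that is Rpl or Rps followed by a digit, together with Rplp0, Rplp1, Rplp2 and Rpsa, without the Rps6k kinases and the pseudogene names containing -ps. The rule used symbols only and found 89 of 21362 genes. Of these, 77 encode core subunit proteins (43 of the large subunit, 31 of the small subunit and 3 of the stalk of the large subunit), and the other members are paralogs, retrogenes and Rps19bp1, whose product binds a ribosomal protein and is not one itself. In all, 84 members passed the filter on low counts and were tested, including every core gene.

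The samples were whole livers of 6 Mettl14 f/f mice on a high-fat diet (HFD), 3 given AAV8-TBG-Cre and 3 given AAV8-TBG-GFP. Mettl14 is a subunit of the enzyme complex that writes N6-methyladenosine on mRNA. All mice, controls included, carried the floxed Mettl14 alleles on a C57BL/6J background, started the diet at 8 weeks of age, received virus after 10 weeks of it and gave liver 8 weeks later. The TBG promoter is active in hepatocytes, so the other liver cells were expected to keep Mettl14 in both groups.

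Library totals were even, between 20356440 and 21010508 counts. Mettl14 itself had 124, 126 and 111 counts in the GFP mice and 104, 131 and 101 in the Cre mice, a log2 difference of -0.29 ± 0.15 (SE) with an edgeR quasi-likelihood adjusted p of 0.337, so the groups are named here by the virus on their labels, as the libraries labelled Cre and GFP. The trimmed mean of M values (TMM) scaling factor was 0.913 to 0.967 in the GFP libraries and 0.989 to 1.18 in the Cre libraries, with Cre replicate 2 highest. Hepatocyte markers were abundant in every library, with a summed level of 95000 to 117000 CPM (counts scaled to a common library size, here after TMM) in GFP and 81900 to 104000 in Cre.

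Ribosomal protein mRNAs were slightly more abundant in the livers of the mice labelled AAV8-TBG-Cre, across nearly the whole set. All 77 core genes had a positive log2 fold change, against 49.0% of all 13431 genes tested. Their median log2 fold change was 0.22, a fold of 1.17, against a median of -0.01 over all genes tested. The shift was small for each gene: no core gene passed an adjusted p of 0.05, and the only member that did was the paralog Rpl22l1, in a comparison where 0.484% of all genes were called higher.

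**Figure D1:**
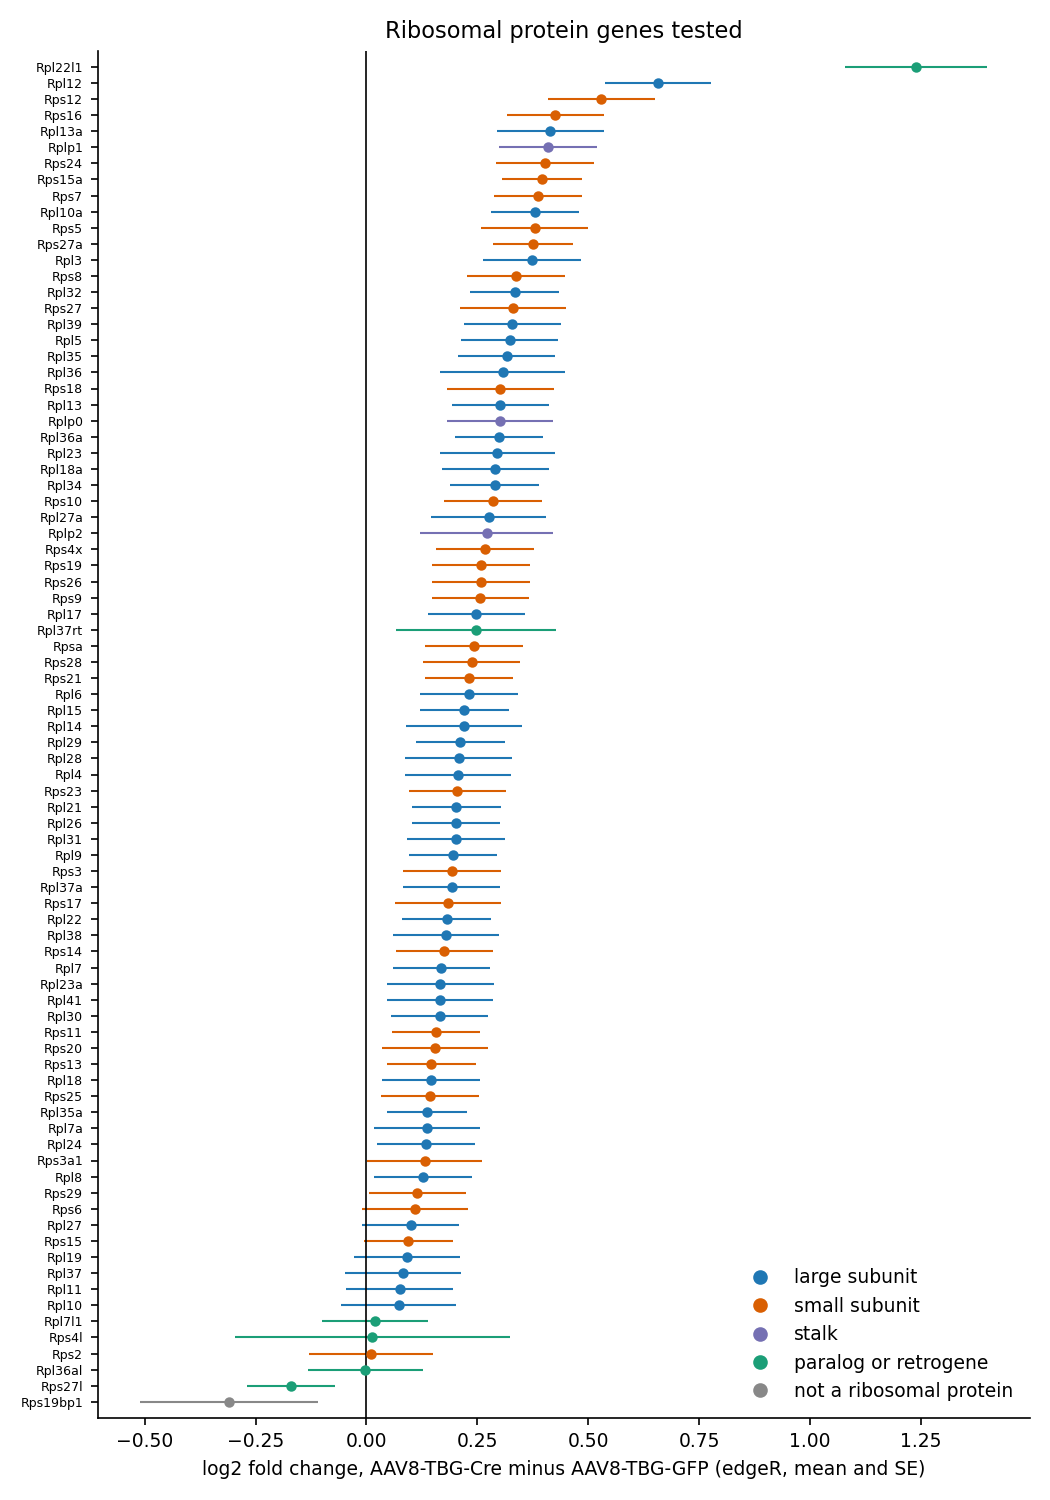
Log2 fold change (x axis, AAV8-TBG-Cre minus AAV8-TBG-GFP, 3 mice a group) of the 84 members tested, with bars of 1 SE and colours for the subunit. The 77 core genes lie between 0.01 and 0.66 and Rpl22l1 stands at 1.24, while Rps27l and Rps19bp1 lie below 0.

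With a looser rule, an unadjusted p below 0.05 and a fold of at least 1.2, 27 members were higher and none was lower. That is 32.1% of the members tested, against 12.0% of all genes called higher and 8.41% called lower. They were 12 genes of the large subunit, 12 of the small subunit, Rplp0 and Rplp1 of the stalk, and Rpl22l1. In 51 members every Cre mouse was above every GFP mouse, and in none was every Cre mouse below. Over all genes tested these shares were 14.0% and 13.0%. The calls changed with the mice included: without GFP replicate 1 the looser rule called 13 members higher, and without GFP replicate 2 it called 12 higher and 1 lower. These fits had fewer mice, and the share of all genes called in them is not given.

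DESeq2, run on the same counts, gave 13 members an adjusted p below 0.05, all higher, where it called 4.81% of all genes higher. These were Rpl3, Rpl10a, Rpl12, Rpl13a, Rpl22l1, Rpl32, Rplp1, Rps7, Rps12, Rps15a, Rps16, Rps24 and Rps27a. Under edgeR the adjusted p of the core genes among them lay at 0.0552 or above.

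The members together took 1.05%, 0.996% and 1.08% of the counts of the GFP libraries and 1.31%, 1.49% and 1.31% of the Cre libraries. The groups did not overlap, with means of 1.04% ± 0.0426 and 1.37% ± 0.104 (SD, n = 3), a ratio of 1.31. After TMM scaling the core genes summed to 10629, 10239 and 11567 CPM in GFP and 12585, 12408 and 13038 CPM in Cre, a ratio of 1.17. The lowest Cre mouse was thus above the highest GFP mouse on both scales, and the size of the difference depended on the scale. No p-value is given for these sums.

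**Figure D2:**
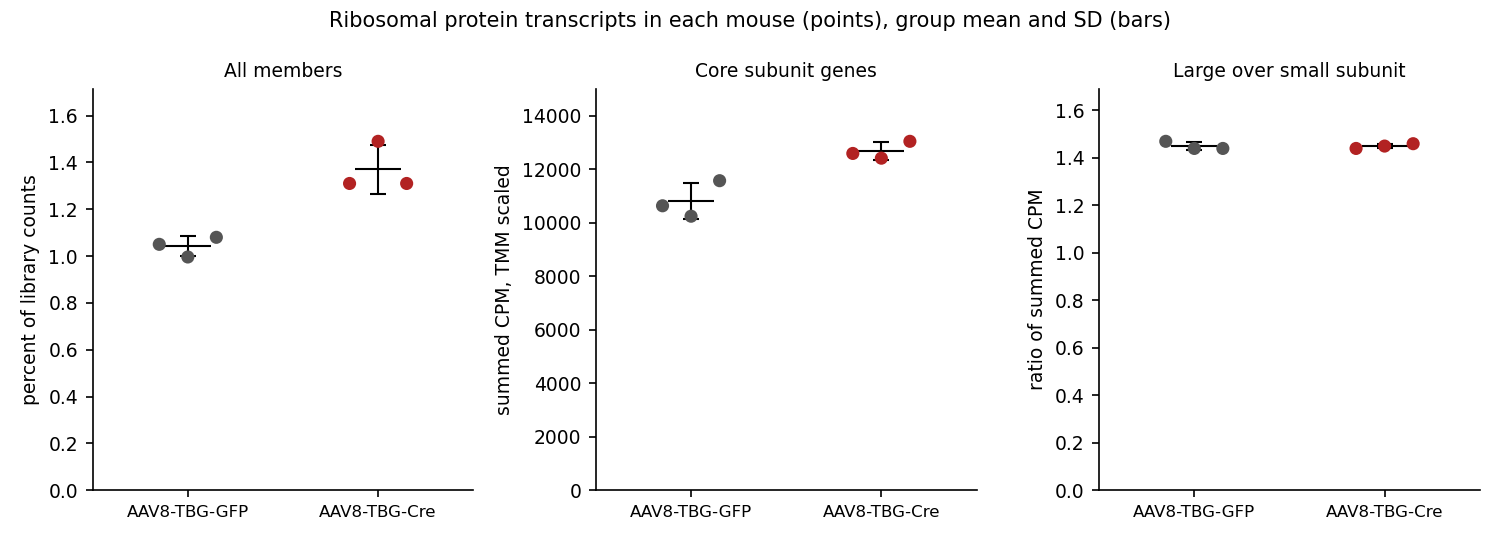
Each point is a mouse; the panels show the members' share of library counts (percent), the summed level of the core genes (CPM, TMM scaled) and the ratio of large to small subunit sums, with group mean and SD bars. The first 2 panels separate the groups, with means of 1.04% and 1.37% and of 10812 and 12677 CPM, while the ratio is 1.45 in both.

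The mice of a group were not alike. The median core gene lay 0.02 and 0.08 log2 units below the GFP mean in GFP replicates 1 and 2 (values of -0.02 and -0.08) and 0.11 above it in GFP replicate 3, where 75 of the 77 core genes exceeded that mean. In Cre replicates 1, 2 and 3 the median core gene lay 0.21, 0.20 and 0.28 above it, with 77, 72 and 76 genes on the higher side. The spread between mice, as the median SD of log2 CPM of a core gene, was 0.103 in GFP and 0.0673 in Cre, below the median shift of 0.22.

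The libraries carry names of a short and a long form, whose meaning the labels do not give. Among the short-named libraries (GFP replicates 1 and 2, Cre replicate 1) all 77 core genes were higher in Cre, with a median log2 ratio of 0.26. Among the long-named ones (GFP replicate 3, Cre replicates 2 and 3) 68 were higher, with a median of 0.13. The direction was the same within both forms and the size smaller within the second.

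The shift was of like size in both subunits. The large subunit genes had a median log2 fold change of 0.21 and the small subunit genes 0.24, with a range of 0.07 to 0.66 and of 0.01 to 0.53. The ratio of the summed large subunit level to the summed small subunit level was 1.47, 1.44 and 1.44 in the GFP mice and 1.44, 1.45 and 1.46 in the Cre mice. These values overlap, and the group means were 1.45 ± 0.0173 and 1.45 ± 0.01 (SD, n = 3).

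Of the core genes, Rpl12 had the largest difference. It encodes a protein at the base of the stalk, where translation factors bind. Its level was 92.6, 86.1 and 104 CPM in the GFP mice and 141, 161 and 144 CPM in the Cre mice, with no overlap. The log2 fold change was 0.66 ± 0.12 (SE), a fold of 1.58, and the edgeR adjusted p was 0.0552. Within the short and long library names the log2 ratio was 0.66 and 0.55. Rpl12 also took a larger part of the ribosomal protein pool, 0.872%, 0.841% and 0.902% of the core CPM in GFP and 1.12%, 1.30% and 1.10% in Cre.

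Rps12, a small subunit protein, came next, at 89.8, 79.6 and 97.1 CPM in GFP and 119, 134 and 132 CPM in Cre. All Cre mice were above all GFP mice. Its log2 fold change was 0.53 ± 0.12 (SE) with an edgeR adjusted p of 0.0711. Rps16, a small subunit protein beside the decoding site, stood at 139, 135 and 152 CPM against 193, 182 and 196 CPM. Its log2 fold change was 0.43 and its edgeR adjusted p 0.0896, again with no overlap of the groups.

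Rpl13a, a large subunit protein also known for an extraribosomal role in silencing inflammatory mRNAs, was at 193, 189 and 216 CPM in GFP and at 257, 258 and 283 CPM in Cre. The groups did not overlap, and the log2 fold change was 0.42 with an edgeR adjusted p of 0.113. Each of these 4 core genes missed the adjusted threshold of edgeR and passed that of DESeq2.

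Several members known for their roles outside the values above are given for context, and they were picked by role after the data were seen. Rpl3, a large subunit protein near the peptidyl transferase centre, was at 158, 138 and 152 CPM in GFP and 184, 196 and 199 CPM in Cre, with no overlap and a log2 fold change of 0.37 ± 0.11 (SE). Rps7, which can bind Mdm2, was at 142, 137 and 152 CPM against 189, 187 and 188 CPM, so its Cre mice were almost equal and all above the controls. Its log2 fold change was 0.39 ± 0.10.

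Rpl5 and Rpl11 enter the large subunit together, as a particle with a small ribosomal RNA, and the same particle inhibits Mdm2. Rpl5 was at 169, 160 and 184 CPM in GFP and 205, 211 and 226 CPM in Cre, with no overlap and a log2 fold change of 0.32 ± 0.11 (SE). Rpl11 was at 147, 144 and 177 CPM in GFP and 162, 165 and 166 CPM in Cre, inside the GFP range, with a log2 fold change of 0.08 ± 0.12. Whether these partners differ from each other was not tested.

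Rps6, the substrate of the S6 kinases, was at 261, 257 and 290 CPM in GFP and 283, 287 and 302 CPM in Cre, which overlap, with a log2 fold change of 0.11 ± 0.12 (SE). Rps19, the gene most often mutated in Diamond-Blackfan anaemia, was at 59.8, 60.1 and 68.5 CPM against 69.1, 75.7 and 80.6 CPM, just without overlap, with a log2 fold change of 0.26 ± 0.11.

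At the other end stood Rps2, a protein at the mRNA entry side of the small subunit. It was at 531, 511 and 573 CPM in GFP and 613, 493 and 521 CPM in Cre. These values overlap fully, and the log2 fold change was 0.01 ± 0.14 (SE). Its part of the core pool was 5.00%, 4.99% and 4.96% in GFP and 4.87%, 3.97% and 4.00% in Cre, so that it was lower in Cre replicates 2 and 3 and close to the controls in replicate 1. Rpl10, which joins the large subunit late in its assembly, had a log2 fold change of 0.07 ± 0.13 (SE), at 348, 320 and 351 CPM against 382, 318 and 370 CPM, with overlap.

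The stalk is made of Rplp0 and dimers of Rplp1 and Rplp2, which recruit and activate the elongation factors. Rplp1 was at 200, 191 and 214 CPM in GFP and 273, 254 and 277 CPM in Cre, a log2 fold change of 0.41 ± 0.11 (SE), with no overlap and an edgeR adjusted p of 0.108. Rplp2 was at 58.6, 70.6 and 81.8 CPM against 80.1, 79.6 and 94.8 CPM, where the highest GFP mouse overlapped the Cre range, and its log2 fold change was 0.27 ± 0.15. Rpsa, a small subunit protein that is also a laminin receptor at the cell surface, was at 288, 288 and 303 CPM against 338, 337 and 365 CPM, a log2 fold change of 0.24 ± 0.11.

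The study normalised mRNA levels of liver and hepatocytes in its quantitative PCR to Rplp0. It had 317, 293 and 334 CPM in the GFP mice and 368, 392 and 403 CPM in the Cre mice, with every Cre mouse higher. The log2 fold change was 0.30 ± 0.12 (SE), a fold of 1.23, with an unadjusted edgeR p of 0.0395 and an adjusted p of 0.216. Within the short-named and the long-named libraries the log2 ratio was 0.27 and 0.25. Without TMM scaling the difference was larger, since library totals alone shifted the median of all genes by 0.16.

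The ratio of Rplp0 to other transcripts commonly used as references does not depend on library scaling. Against the 12 such genes other than Rpl13a, the mean log2 ratio was higher in the Cre mice for 12, by 0.07 (Ywhaz) to 0.68 (Gapdh) with a median of 0.38. For 10 of the 12 the Cre and GFP mice did not overlap. Against Actb the log2 ratio was -0.89, -0.81 and -0.93 in GFP and -0.25, -0.70 and -0.54 in Cre. Against Hprt it was 2.68, 2.64 and 2.79 in GFP and 3.18, 3.07 and 2.90 in Cre. Against Rpl13a, itself a member, the ratio moved by -0.11, to the other side.

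Levels are compared between genes per length, as FPKM, fragments scaled to transcript length and library size. The core genes spanned 4.92 to 523 FPKM in the GFP mean, with a median of 164, and 7.28 to 662 FPKM in the Cre mean, with a median of 226. The highest were Rpl41, a tiny basic large subunit peptide, at 523 ± 28.6 and 662 ± 76.9 FPKM (SD, n = 3) in GFP and Cre, and Rps2 at 513 ± 19.8 and 581 ± 55.8 FPKM. These first 2 do not differ beyond their spread. Rplp1 followed at 432 ± 17.8 and 645 ± 30.9 FPKM, then Rpl10 at 412 ± 20.8 and 485 ± 15.6 FPKM and Rpl28, a large subunit protein, at 360 ± 19.5 and 467 ± 21.9 FPKM. Rplp1 and Rpl10 were within their spread of each other in GFP and apart in Cre.

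The lowest core gene was Rps15a, at 4.92 ± 0.217 FPKM in GFP and 7.28 ± 0.831 FPKM in Cre. Its transcript is listed with 5158 bases, against a median of 731.6 bases for the core genes, which lowers any value per kilobase. Reads may also be shared with records named as pseudogenes of Rps15a, given at the end. As CPM Rps15a stood at 27.0, 27.9 and 26.8 in GFP and 33.5, 36.3 and 37.6 in Cre, with no overlap and a log2 fold change of 0.39 ± 0.09 (SE). Rps4l, with 12.5, 18.2 and 10.3 CPM in GFP and 20.3, 11.0 and 9.96 CPM in Cre, varied more between mice than any group difference, and its log2 fold change was 0.01 ± 0.31. Its relative Rps4x, the small subunit protein itself, was at 164, 161 and 172 CPM in GFP and 202, 207 and 189 CPM in Cre, with no overlap and a log2 fold change of 0.27 ± 0.11.

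A few members have a near relative that can take the same place in the ribosome. Rpl22l1 is the paralog of Rpl22, and the protein Rpl22 is known to repress Rpl22l1. The gene lies at chr3:28805508-28807424 of GRCm38.p6 (mm10). Its counts were 78, 84 and 65 in the GFP mice and 204, 204 and 195 in the Cre mice, or 3.96, 4.29 and 3.40 CPM against 9.73, 8.38 and 9.39 CPM. Every Cre mouse had about the same level and lay far above every GFP mouse. The log2 fold change was 1.24 ± 0.16 (SE), a fold of 2.36, with an edgeR adjusted p of 0.0338. The exact permutation test over the mice, two-sided, gave 0.1, the smallest value that 3 against 3 allows.

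The size of the Rpl22l1 difference held with each mouse left out in turn, between 1.14 and 1.31 on the log2 scale, but the call often did not. Its edgeR adjusted p was 0.133, 0.135 and 0.0828 without GFP replicates 1, 2 and 3, and 0.0277, 0.0766 and 0.0871 without Cre replicates 1, 2 and 3. DESeq2 gave an adjusted p of 1.22e-06 with all mice. The log2 ratio was 1.24 within the short-named and 1.38 within the long-named libraries.

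Rpl22 had 76.4, 79.6 and 86.0 CPM in GFP and 94.6, 90.8 and 89.0 CPM in Cre, a log2 fold change of 0.18 ± 0.10 (SE). Rpl22l1 was 5.19%, 5.38% and 3.96% of Rpl22 in the GFP mice and 10.3%, 9.23% and 10.5% in the Cre mice, by CPM. The groups were far apart, and the mean ratio was 2.07 times as high in Cre. By FPKM, which allows for the length of the Rpl22 transcript, Rpl22l1 was 23.7% ± 3.77 of Rpl22 in GFP and 49.1% ± 3.29 in Cre (SD, n = 3).

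The reads of this pair can be told apart by sequence. Their coding sequences in GENCODE vM1, 369 and 387 bases, are identical at 70.2% of 369 aligned positions, and the longest run their transcripts share is 26 bases. A stretch of 90 coding bases is shown from each, coding bases 157 to 246 of Rpl22l1 and 175 to 264 of Rpl22, with the 26 positions that differ in capitals.
Rpl22l1: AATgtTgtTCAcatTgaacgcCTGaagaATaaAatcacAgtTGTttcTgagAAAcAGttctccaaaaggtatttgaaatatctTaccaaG
Rpl22: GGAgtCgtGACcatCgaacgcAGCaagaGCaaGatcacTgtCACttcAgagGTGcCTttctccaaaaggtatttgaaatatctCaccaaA

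Rps27l, a target of p53 and paralog of Rps27, was one of the 3 members with a negative log2 fold change. Its level was 60.8, 54.9 and 60.9 CPM in GFP and 55.1, 50.6 and 51.4 CPM in Cre, which overlap, and its log2 fold change was -0.17 ± 0.10 (SE). Rps27 was at 79.6, 87.0 and 99.3 CPM in GFP and 109, 110 and 116 CPM in Cre, with no overlap and a log2 fold change of 0.33 ± 0.12. The ratio of Rps27l to Rps27 was therefore 76.4%, 63.2% and 61.4% in GFP and 50.7%, 46.1% and 44.3% in Cre, lower in every Cre mouse.

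The 2 coding sequences, 255 bases each, are identical at 76.1% of positions and share no run over 11 bases between their transcripts. The first 90 coding bases of each follow, with the 24 differing positions in capitals, since the ratio rests on telling these transcripts apart.
Rps27l: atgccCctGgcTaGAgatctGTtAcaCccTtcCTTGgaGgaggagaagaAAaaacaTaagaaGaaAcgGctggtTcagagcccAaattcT
Rps27: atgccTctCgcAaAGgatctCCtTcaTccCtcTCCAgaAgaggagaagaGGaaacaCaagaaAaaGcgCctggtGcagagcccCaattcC

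Rpl36al, a retrogene that yields the same kind of large subunit protein as Rpl36a, had 84.0, 70.7 and 81.9 CPM in GFP and 83.3, 68.6 and 84.4 CPM in Cre, an overlap throughout. Rpl36a stood at 46.5, 48.2 and 55.6 CPM against 61.9, 61.7 and 61.4 CPM, without overlap, and its log2 fold change was 0.30 ± 0.10 (SE). Rpl36al was 181%, 147% and 147% of Rpl36a in GFP and 135%, 111% and 137% in Cre. The pair shares 87.9% of 321 coding positions and a run of 24 bases, the closest of the 4 pairs.

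Rpl7l1, a large subunit assembly factor related to Rpl7, had 57.1, 52.6 and 62.8 CPM in GFP and 53.6, 55.4 and 66.0 CPM in Cre. Its ratio to Rpl7 was 30.7% ± 0.872 in GFP and 27.7% ± 2.89 in Cre (SD, n = 3), and the groups overlapped. In 3 of the 4 pairs the ratio therefore separated the groups, upward for Rpl22l1 and downward for Rps27l and Rpl36al. The ratios carry no p-value.

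**Figure D3:**
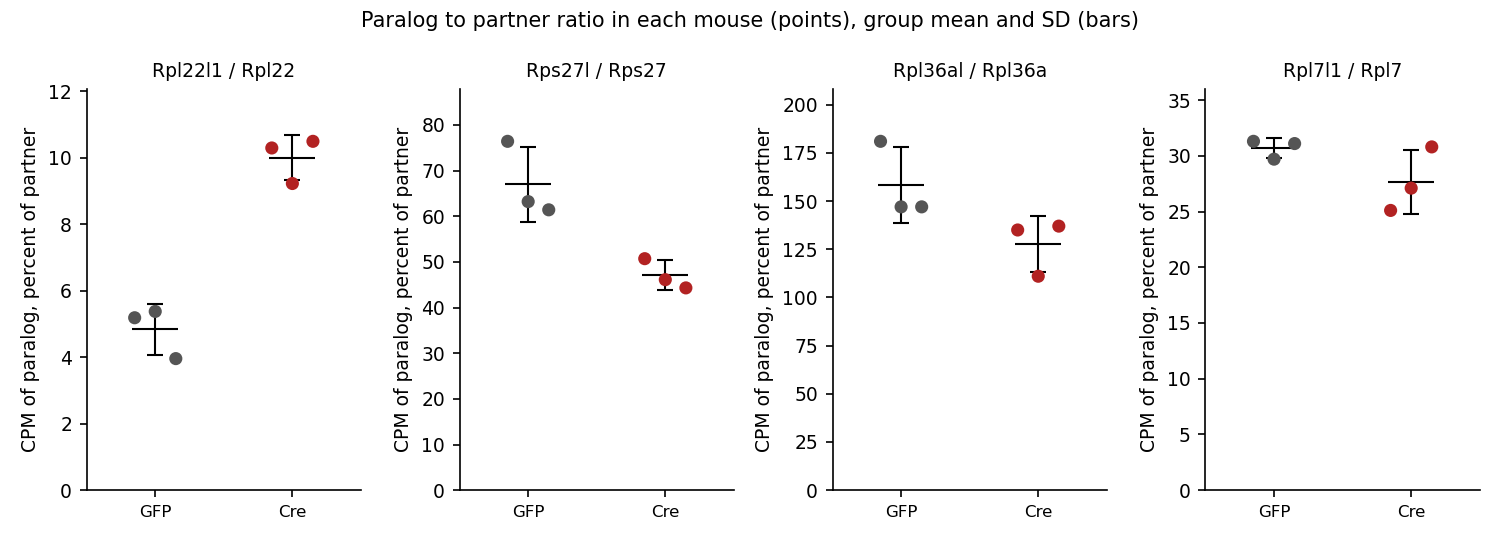
Level of each paralog as a percent of its partner (CPM), 1 point a mouse, with group mean and SD bars. The ratio of Rpl22l1 to Rpl22 is higher in all 3 Cre mice (means 4.84% and 10.0%), those of Rps27l (67.0% and 47.0%) and Rpl36al (158% and 128%) are lower in all 3, and that of Rpl7l1 overlaps.

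Rpl37rt, a retrogene, had 22.5, 26.4 and 34.9 CPM in GFP and 35.2, 35.9 and 28.3 CPM in Cre, with overlap. Rps19bp1 had 14.0, 8.42 and 11.0 CPM against 8.73, 8.01 and 10.2 CPM, a log2 fold change of -0.31 ± 0.20 (SE), with overlap. The other 5 members were too low to test. Of these, Rpl3l, a muscle form of Rpl3, averaged 0.0567 FPKM over the 6 libraries, Rpl39l, a testis form, 0.03 FPKM, and Rpl32l 0.0583 FPKM, while Rpl10l and Rps27rt are listed at 0. Rpl39, the broadly expressed relative of Rpl39l, was at 25.6, 26.7 and 31.5 CPM in GFP and 33.0, 35.2 and 37.0 CPM in Cre, with no overlap.

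Promoter sequence was compared because the core genes moved together. The RefSeq promoters (GRCm38.p6, 250 bases before to 50 after the listed start) held 68 of the 89 members, among them 57 core genes. A C followed by at least 4 pyrimidines, beginning within 5 bases of the listed start, stood in 47.4% of the core genes, in 25.0% of 68 mitochondrial ribosomal protein genes and in 21.2% of 27025 genes. On either strand, CCGGAAG, an ETS family motif, was in 42.1% of the core promoters, 36.8% of the mitochondrial ribosomal ones and 9.93% of all. The YY1 motif AAGATGG was in 15.8%, 19.1% and 7.28% of these sets, the GC box GGGCGG in 61.4%, 50.0% and 38.2%, and the TATA box TATAAA in 10.5%, 7.35% and 15.7%. No 2 of these letter strings contain each other, and a match describes the sequence only.

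The windows from 70 bases before to 20 bases from the start are shown for the 5 members with the largest log2 fold change and for Rps2, the core gene with the smallest. Capitals mark the 4 motifs on either strand and a pyrimidine run at the start.
Rpl22l1, chr3:28805438-28805527, plus strand: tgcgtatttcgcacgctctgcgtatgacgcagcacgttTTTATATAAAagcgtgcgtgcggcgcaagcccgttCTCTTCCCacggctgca
Rpl12, chr2:32961642-32961731, plus strand: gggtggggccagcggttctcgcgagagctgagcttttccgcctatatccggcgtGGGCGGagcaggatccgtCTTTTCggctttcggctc
Rps12, chr10:23787190-23787279, minus strand: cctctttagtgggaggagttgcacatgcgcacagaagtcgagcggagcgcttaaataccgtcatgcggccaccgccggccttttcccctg
Rps16, chr7:28350619-28350708, plus strand: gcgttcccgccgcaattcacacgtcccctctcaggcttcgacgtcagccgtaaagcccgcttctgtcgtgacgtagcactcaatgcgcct
Rpl13a, chr7:45128726-45128815, minus strand: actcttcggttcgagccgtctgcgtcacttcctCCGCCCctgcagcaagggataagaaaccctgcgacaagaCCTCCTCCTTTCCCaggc
Rps2, chr17:24719993-24720082, plus strand: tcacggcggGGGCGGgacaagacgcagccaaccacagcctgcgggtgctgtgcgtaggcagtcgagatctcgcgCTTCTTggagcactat

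Of these windows, those of Rpl22l1, Rpl12, Rpl13a and Rps2 hold a pyrimidine run beginning within 5 bases of the listed start, and that of Rpl22l1 alone a TATA box. The Rps12 window holds an unmarked pyrimidine run that begins further downstream, so its absence from this list depends on the listed start.

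The rest of the translation machinery was read from gene lists, which were chosen with earlier results of these data known. The genes named Mrpl or Mrps, which encode the mitochondrial ribosome, had a positive log2 fold change in 9 of 77 and a median of -0.13, with 4 lower by the looser rule (Mrpl34, Mrpl38, Mrpl49 and Mrps7, 5.19% of the list against 8.41% of all genes) and none higher; under library totals without TMM 45 of 77 were positive, with a median of 0.03 against 0.39 for the core genes. The cytosolic and mitochondrial sets thus differed in median by 0.22 against -0.13 after TMM scaling. In 14 mitochondrial ribosomal genes every Cre mouse was below every GFP mouse, 18.2% of those tested against 13.0% of all genes. The number of positive mitochondrial genes was 5 without Cre replicate 1, 19 without Cre replicate 2 and 5 without Cre replicate 3.

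The subunit genes Rack1 and Fau fall outside the name rule. Rack1, the scaffold protein on the head of the small subunit, stood at 167, 164 and 180 CPM in GFP and 195, 205 and 220 CPM in Cre, with no overlap and a log2 fold change of 0.28 ± 0.11 (SE). Fau, which carries small subunit protein eS30 fused to a ubiquitin-like part, was at 136, 142 and 165 CPM in GFP and 154, 161 and 174 CPM in Cre, with overlap and a log2 fold change of 0.14 ± 0.12.

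Of 19 elongation factors and other mRNAs with a terminal oligopyrimidine start, 15 (78.9%) were positive, against 49.0% of all genes, with a median of 0.05. In 5 of them (26.3%, against 14.0% of all) every Cre mouse was above every GFP mouse, and in none below. By the looser rule 2 were higher (10.5%, against 12.0% of all): Gas5, a noncoding host of small nucleolar RNAs, at 0.39 and Hnrnpa1, an RNA-binding protein, at 0.39. The most abundant of them, Eef1a1 and Eef2, which drive elongation, had log2 fold changes of -0.01 ± 0.18 and 0.03 ± 0.15 (SE). Of 21 initiation factors 10 were positive (47.6%, against 49.0% of all genes), and the median was -0.01. Eif4g1, the scaffold of the cap-binding complex, was lower by the looser rule, at -0.31 (4.76% of the list, against 8.41% of all genes).

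Among 34 ribosome assembly genes tested, 23 were positive (67.6%, against 49.0% of all genes), with a median of 0.10. Polr1c and Ubtf, a subunit and an activator of RNA polymerase I transcription, and Nop58 and Gar1, of the small nucleolar ribonucleoproteins, were higher by the looser rule, with log2 fold changes of 0.30, 0.43, 0.61 and 0.56. These 4 are 11.8% of the list, against 12.0% of all genes. In 4 assembly genes (11.8%, against 14.0% of all) every Cre mouse was above every GFP mouse. In 5 (14.7%, against 13.0% of all) every Cre mouse was below. Of 16 regulators of terminal oligopyrimidine mRNAs 3 were positive (18.8%, against 49.0% of all genes), with a median of -0.07. The kinase Mtor (-0.37 ± 0.13, SE) and its partner Rptor (-0.30 ± 0.10) were lower by the looser rule (12.5% of the list, against 8.41% of all genes). Larp1, which binds terminal oligopyrimidine mRNAs, was at -0.05. None of the genes in these lists passed an edgeR adjusted p of 0.05.

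**Figure D4:**
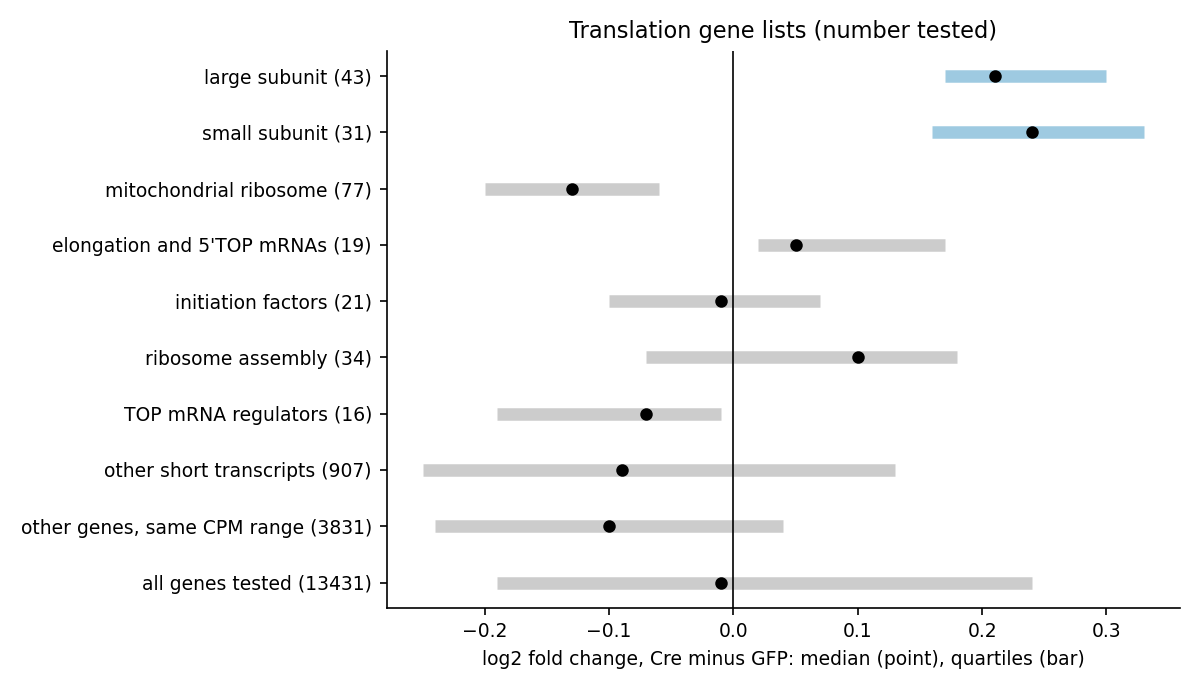
Median (point) and quartiles (bar) of the log2 fold change (x axis, Cre minus GFP, edgeR with TMM) in each list of translation genes and in sets of other genes. The 2 subunits have medians of 0.21 and 0.24, the mitochondrial ribosome -0.13, and all genes tested -0.01; under library totals the mitochondrial median is 0.03.

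Other genes with short transcripts, and other genes in the same range of level, had medians below 0. Each set was matched on length or on level alone, and neither was tested as a cause. The core genes have a median transcript length of 731.6 bases, against 2820 for all genes tested. Among the 907 other genes with transcripts below 1000 bases the median log2 fold change was -0.09 and 38.4% were positive, while the 58 core genes below 1000 bases had a median of 0.22 and were all positive. Among the 3831 other genes whose mean level lay in the core range of 31.5 to 540 CPM, the median was -0.10 and 30.7% were positive. With the trend over transcript length removed, the core median was 0.26 against -0.08 for all genes.

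Genes with whole and fractional expected counts had like medians. The expected counts of a gene, summed over its transcripts, were within 0.02 of a whole number in every library for 50 core genes, with a median log2 fold change of 0.23, and fractional for 27, with a median of 0.22. A whole sum holds no visible fraction of a read shared with another gene, though reads can still be divided between transcripts of the gene. Some reads of the fractional genes may belong to pseudogenes or related members, and those genes are less certain one by one.

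The markers of other liver cells moved with the groups as well. Over all genes tested 49.0% had a positive log2 fold change. Of 12 macrophage and Kupffer cell markers 11 were positive (median log2 fold change 0.69), with a summed level of 329 to 380 CPM in GFP and 528 to 816 in Cre. Of 10 stellate cell and fibroblast markers 7 were positive (median 0.71), with sums of 248 to 378 and 487 to 1030 CPM, and of 8 cholangiocyte markers tested all 8 were positive (median 2.45), with sums of 72.2 to 128 and 306 to 574 CPM. No marker of these 3 lists was at 0 in every library. Of 10 endothelial markers none was positive (median -0.31). Of 7 proliferation markers 6 were positive (median 1.27). By the looser rule 4, Mki67, Ccna2, Cdk1 and Top2a, were higher (57.1% of the list, against 12.0% of all genes). The sums of this list overlapped, at 34.6 to 39.3 CPM in GFP and 37.8 to 49.2 CPM in Cre. Of 5 neutrophil markers tested 4 were positive (median 0.97), and their sums were 14.8 to 15.8 and 19.3 to 21.6 CPM, while T and NK cell sums of 3.19 to 5.20 and 3.95 to 6.41 CPM and B cell sums of 1.33 to 1.47 and 1.59 to 3.96 CPM were low. The part of these cell types in the ribosomal protein difference was not tested. In whole liver more cells of a type and more RNA per cell cannot be told apart.

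**Figure D5:**
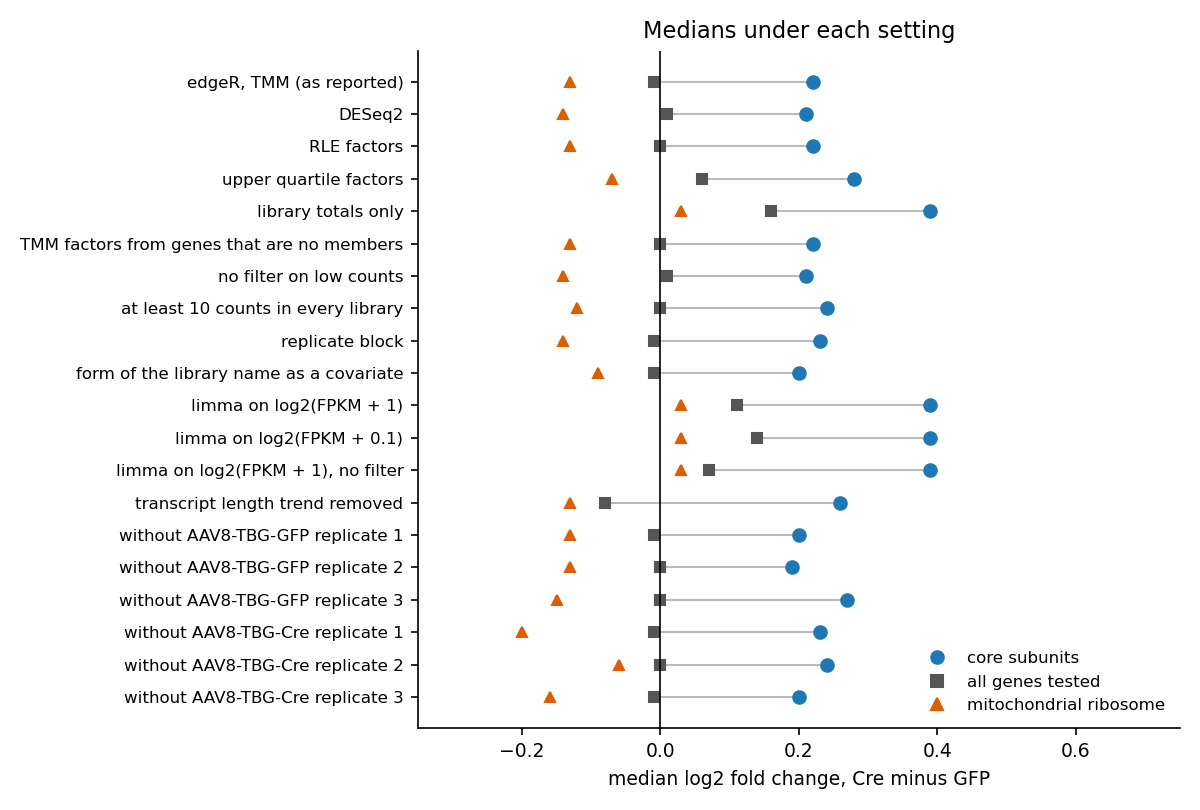
Median log2 fold change (x axis, Cre minus GFP) of the 77 core genes (circles), all genes tested (squares) and the mitochondrial ribosomal protein genes (triangles) under each setting of the analysis. The core median lies above that of all genes in every setting shown, between 0.19 and 0.39, while the mitochondrial median passes from -0.13 to 0.03 under library totals and under FPKM.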

How the data were processed

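Liver RNA of 6 mice was sequenced as bulk libraries. Per the labels, the authors used HISAT2, Bowtie2 and RSEM with build mm10, and the study's methods name STAR, HTSeq and DESeq2, so the route of each table is not settled. The deposited files give RSEM expected counts per transcript and FPKM per gene, computed by the authors. For each gene the expected counts of its transcripts were added and rounded to whole numbers, and 13431 genes passed filterByExpr. CPM were scaled by TMM. The groups were compared with edgeR 4.0.16 (quasi-likelihood test, Benjamini-Hochberg adjustment, virus as the only term), with DESeq2 1.42.0 and limma 3.58.1 in R 4.3.3 as alternatives. The labels do not state whether libraries came from separate extractions, and p-values measure the spread between these samples. No 2 libraries of a group agreed within sampling noise. The edgeR script was tested on simulated data.

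Members, lists and promoter motifs were chosen with earlier results of these data known. Named members were those past the adjusted threshold, the 5 largest and 5 smallest log2 fold changes, the 5 highest and lowest levels, the stalk genes with Rpsa, and the paralogs with their partners. Others were named after their values were seen.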

Additional observations from a re-analysis of the deposited data

How the results depend on the processing

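The core genes kept a positive log2 fold change in 75 to 77 of 77 under every alternative tried, and all members in 78 to 83. The median log2 fold change of the members was 0.19 to 0.26 with 1 mouse left out and 0.38 under library totals and under each limma fit of FPKM, where the median of all genes also moved, to between 0.07 and 0.16. The number of members with an adjusted p below 0.05 was 1 in the reported fit, 13 under DESeq2, 2 each without the low-count filter, with library name form in the model and with the length trend removed, 0 under library totals, and 0 to 4 with 1 mouse left out. By unadjusted p and fold the reported 27 became 48 under upper quartile factors, 73 under library totals and under each limma fit, 2 with a fold of at least 1.5, and 12 to 32 with 1 mouse left out, and the number lower was 0 to 1. Under upper quartile factors the median of all genes moved too, to 0.06. The share of all genes called under each alternative is not given, so whether a change in these counts is particular to the members is not known. The causes were not tested.

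Replicate numbers did not pair the mice, as same-numbered deviations correlated at 0.00915, -0.263 and 0.209, and with a replicate block 0 members passed the adjusted p, Rpl22l1 having 0.109. Under library totals its adjusted p was 0.0578. Rpl12 passed with the filter off (0.0413), with the name form (0.0453) and with the length trend removed (0.0445).

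Members near 0 changed sign. Rpl36al became 0.059 under upper quartile factors, 0.16 under library totals and the limma fits, 0.013 with at least 10 counts everywhere, 0.0041 with the name form, 0.055 with the length trend removed, and -0.076 to 0.085 with 1 mouse left out. Rps2 became -0.00045 without the filter and -0.087 to 0.072 with 1 mouse left out. Rps4l became -0.018 under the replicate block and -0.38 to 0.27 with 1 mouse left out. Rpl7l1 became -0.042 with the name form, -0.057 with the length trend removed, and -0.081 to 0.077 with 1 mouse left out.

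The members' share of counts differed by a log2 ratio of 0.39, 0.33 to 0.43 with 1 mouse left out. The log2 ratio of Rpl22l1 to Rpl22 was 0.92 to 1.13, of Rps27l to Rps27 -0.57 to -0.41, of Rpl36al to Rpl36a -0.36 to -0.20 and of Rpl7l1 to Rpl7 -0.23 to -0.08. With 3 mice a group, differences below about the reported shift cannot be told apart gene by gene.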

Other observations

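Of 14 members with more than 1 listed transcript, 12 had a main transcript above 80% of the gene's counts on average. The exceptions were Rpl3l, with hardly any counts, and Rpl22, whose main transcript NM_009079 took 88.7%, 72.2% and 85.7% in the GFP mice and 54.4%, 94.9% and 81.6% in the Cre mice, and NM_001277113 8.62%, 27.8% and 12.9% against 43.7%, 3.92% and 15.9%. These shares of Rpl22 varied widely within both groups, while its summed count, used in the ratio of Rpl22l1 to Rpl22, does not depend on them. Rpl31, a large subunit protein, used NM_001252219 for 1.97% to 12.4% in GFP and 6.03% to 10.2% in Cre, with overlap. Rpl30, a large subunit protein, used its longer transcript NM_009083 for 6.10%, 5.33% and 6.10% of its counts in the GFP mice and 3.90%, 3.70% and 3.86% in the Cre mice, so the groups did not overlap. In Rps27a, which encodes a small subunit protein fused to ubiquitin, the longer NM_001033865 took 4.69%, 5.88% and 5.13% in GFP and 6.59%, 6.15% and 6.25% in Cre. Rps24, a small subunit protein with alternative last exons, used NM_011297 for 7.09%, 8.17% and 1.61% in GFP and 9.31%, 9.44% and 7.67% in Cre, where GFP replicate 3 was far below the other libraries and the groups overlapped. Of the 37 transcripts of these 14 members, 7 had shares that separated the groups, in Rpl29, Rpl30, Rps27 and Rps27a. How often such shares separate over all genes is not given. All these transcript shares are RSEM estimates, they were not tested, and the genes were named after their values were seen.

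Records named as ribosomal protein pseudogenes were left out by the name rule. Of 7 such records 5 were tested, led by Rpl31-ps12 at a mean of 51.2 FPKM with a log2 fold change of -0.01 and Rpl14-ps1 at 36.0 FPKM with 0.18, and none passed the edgeR adjusted threshold. Rps15a-ps6 averaged 16.0 FPKM, above Rps15a itself at 6.1 FPKM, with a log2 fold change of 0.34. Rps15a-ps4 averaged 4.5 FPKM, with 0.73. Reads of all these records may be shared with the parent genes.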
